A study of Mus musculus with 4 samples.

Results

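Plasma cells of aged spleen carried more RNA of 9 of 10 endoplasmic reticulum (ER) folding and stress genes than B cells of the same spleen. Microglia of aged brain carried less of 5 of the 10 than microglia of young brain. Of all genes measured, 10.5% were higher in the first comparison and 4.91% lower in the second, by the same 1.5-fold rule. The 10 genes were Hspa5, Hsp90b1, Sdf2l1, Pdia3, Pdia4, Pdia6, Calr, Herpud1, Xbp1 and Ddit3, chosen by name, and all 10 were found among the 31053 genes of the mouse count matrices. The data are 4 single-cell libraries, 1 each from the brain and the spleen of aged mice and from the brain and the spleen of young mice, of cells gated on strong staining for the leukocyte protein CD45. Tamoxifen injection and tdTomato+ NK cells are mentioned identically in the labels of all 4 libraries, so neither separates the groups. Age in months, strain, genotype and the number of mice per library were not given in the sources used here.

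No group was replicated, so no difference between groups was tested, and every interval below is an exact 95% interval that covers counting error only. Beside a count of 0, the limit given is the level of 3 UMIs and not the end of an interval. The age of the mice and the library that carries it cannot be told apart. Levels are unique molecular identifiers (UMIs, one per captured RNA molecule) of a gene per 1000000 UMIs of a cell class (CPM). A gene is called higher or lower when its level differed at least 1.5-fold and the groups together held at least 50 UMIs of it. The UMIs were counted near the 3′ end of transcripts, so levels of different genes are not ranked against each other.

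The libraries held 57011537 UMIs in aged brain, 26384220 in young brain, 40628623 in aged spleen and 39866955 in young spleen. Between young brain and aged spleen, 4401 cell barcodes were held in common, against 6.24 by the size of the barcode pool, and 7 to 44 between the other pairs of libraries, against 4.91 to 13.6. The 4694 young brain barcodes with more UMIs in aged spleen were therefore left out, 58.1% of the 8076 cells called in young brain, after which 1 shared barcode remained. The cells kept were 11402 in aged brain, 3382 in young brain, 5250 in aged spleen and 6355 in young spleen.

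The ER folds proteins that a cell will secrete or display on its surface, and antibody-secreting plasma cells are the textbook example of a cell that enlarges this compartment. When unfolded proteins build up there, the membrane sensors IRE1, PERK and ATF6 start the unfolded protein response, which raises chaperones, enzymes that form disulfide bonds and the pathway that returns failed proteins to the cytosol for degradation. IRE1 splices Xbp1 mRNA to give an active transcription factor, and PERK acts through ATF4 on genes such as Ddit3. The UMI counts do not separate spliced from unspliced Xbp1.

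The ER stress response element is a promoter motif that ATF6 and XBP1 are known to use, and it is shown here because it is the sequence that several of the 10 genes have in common. The letters searched on both strands, in the 250 bases before each RefSeq gene start of build GRCm38.p6, were CCAAT, any 9 bases and CCACG (the ER stress response element), ATTGG, any 1 base and CCACG (its second form), TGACGTG (the core of the unfolded protein response element) and TGATGNAA (the amino acid response element bound by ATF4 and its partners). Of 32851 promoters, 37 held the first (0.113%), and 4 of the 10 genes were among them, namely Hspa5, Hsp90b1, Pdia6 and Calr. The second form stood in 10 promoters (0.0304%), Herpud1 among them. The core TGACGTG stood in 542 promoters (1.65%), of which Hspa5 was the 1 gene of the 10, and TGATGNAA in 1134 (3.45%), of which Herpud1 was the 1 gene of the 10. None of these letters stood in the windows of Pdia3, Pdia4, Xbp1, Sdf2l1 and Ddit3. A match is a description of the sequence and not evidence that a factor binds there. The motifs were chosen because they are known for this response, so the shares over all promoters are not a test of enrichment. The windows below run 5′ to 3′ on the strand of the gene, and capitals mark the ER stress response element in the first 4 and its second form in Herpud1. They cover, in order, chr2:34772020-34772048 (plus strand), chr10:86705510-86705629 (minus strand), chr12:17266425-17266544 (plus strand), chr8:84846976-84847095 (minus strand) and chr8:94386309-94386428 (plus strand).
Hspa5: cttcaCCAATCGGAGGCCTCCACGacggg
Hsp90b1: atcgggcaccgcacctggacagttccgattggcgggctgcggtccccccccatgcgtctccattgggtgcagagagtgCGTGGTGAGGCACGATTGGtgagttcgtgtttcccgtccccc
Pdia6: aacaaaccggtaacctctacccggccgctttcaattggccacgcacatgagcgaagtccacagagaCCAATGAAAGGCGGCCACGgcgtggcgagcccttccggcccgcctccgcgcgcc
Calr: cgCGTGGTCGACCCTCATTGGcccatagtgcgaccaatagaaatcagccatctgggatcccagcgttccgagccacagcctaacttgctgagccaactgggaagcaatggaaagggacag
Herpud1: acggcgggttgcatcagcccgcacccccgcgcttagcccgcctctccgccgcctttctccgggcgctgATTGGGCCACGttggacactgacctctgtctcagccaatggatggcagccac
The marked letters lie 65 to 47 bases before the start of Hspa5, 107 to 89 before that of Hsp90b1, which holds a second match at 212 to 194, 98 to 80 before Pdia6, 162 to 144 before Calr and 52 to 42 before Herpud1. The shown stretch of Hspa5 lies in an exon that 1 annotated transcript starts upstream.

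Cells were assigned to classes without use of the 10 genes, although the rule for plasma cells was chosen with earlier results of these data known. Plasma cells were cells with at least 20 UMIs of Jchain, which joins antibody polymers, and at least 3 of Mzb1 and Derl3 together. The rule found 63 in aged spleen (1134225 UMIs, median 17656 per cell) and 8 in young spleen (51969 UMIs, median 4475). The other classes came from clusters named by markers: 1914 and 2381 B cells, 723 and 1778 NK cells and 1276 and 1325 T cells in aged and young spleen, and 6374 and 2425 microglia and 802 and 185 border macrophages in aged and young brain. Neuroblast is the cell type written in the labels of every library. A list of 8 neuroblast and neuron genes summed to at most 19.1 CPM in the classes described here, so these classes are called by their immune markers.

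Single markers used in the assignment describe the classes and are not separate evidence for them. Plasma cells had 21080 CPM of Jchain in aged spleen and 35194 CPM in young spleen, against 26.0 and 6.03 CPM in B cells of aged and young spleen. Outside the rule, Sdc1, Prdm1 and Tnfrsf17 were at 174, 88.2 and 69.7 CPM in aged plasma cells, against 6.21, 5.08 and 0.339 CPM in aged B cells. In young plasma cells these genes rested on 12, 3 and 7 UMIs. Antibody genes made up 41.5% of plasma cell UMIs in aged spleen and 48.7% in young spleen, against 1.21% and 1.69% in the B cells. Cd79a, a part of the B cell receptor, stood at 1887 and 2401 CPM in B cells of aged and young spleen, and Ncr1, an NK receptor, at 349.9 and 593 CPM in NK cells. Tmem119, a microglia gene, had 1755 CPM in microglia of aged brain and 1537 CPM in those of young brain, against 408 and 122 CPM in border macrophages. Mrc1, a scavenger receptor of border macrophages, had 1778 and 2382 CPM in border macrophages of aged and young brain and 19.9 and 12.4 CPM in microglia. Near the thresholds, the 7 aged spleen cells with 20 to 39 Jchain UMIs that passed the rule held 7926 CPM of the 10 genes together, and the 4 cells with 10 to 19 UMIs just outside held 3689 CPM. The 10 aged spleen cells with enough Jchain but fewer than 3 UMIs of Mzb1 and Derl3 held 3414 CPM, and the 2 such cells of young spleen held 5572 CPM, against 5696 CPM in the 8 that passed. Mzb1 and Derl3 are themselves genes of the ER.

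Among the chaperones, Hspa5, the ER Hsp70 known as BiP, was at 2025 CPM (1943 to 2109.7) in plasma cells of aged spleen and 750.4 CPM (534 to 1026) in those of young spleen. In B cells it was at 442 and 445 CPM, in NK cells at 731 and 589.9 CPM and in T cells at 611 and 625 CPM (aged and young spleen). In brain it was at 563 and 905 CPM in microglia and 519 and 655 CPM in border macrophages (aged and young). Aged plasma cells thus stood above every other class, whereas the interval of the young plasma cells held the NK, T and microglia values of the young libraries. Hsp90b1, the ER Hsp90 known as GRP94, was also highest in plasma cells within spleen, with 2816 and 1232 CPM in plasma cells of aged and young spleen and 191 to 403 CPM in B, NK and T cells. In brain Hsp90b1 was at 772 and 966 CPM in microglia and 643 and 710.0 CPM in border macrophages of aged and young brain, above every lymphocyte class except plasma cells. Sdf2l1, which acts with the BiP cochaperone ERdj3, was at 408 and 135 CPM in plasma cells of aged and young spleen and at 13.5 to 40.9 CPM in B, NK and T cells. Microglia held 65.9 CPM of Sdf2l1 in aged brain and 189.7 CPM in young brain, and border macrophages 55.6 and 119.6 CPM, so that young microglia exceeded the 8 young plasma cells in the estimate while the intervals overlapped.

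Among the disulfide isomerases, plasma cells led in Pdia4, and microglia led in Pdia3. Pdia6 was led by plasma cells in the aged libraries and by microglia in the young ones. Pdia4 (ERp72) was at 586 and 404 CPM in plasma cells of aged and young spleen, 35.1 to 73.5 CPM in B, NK and T cells, 116 and 114 CPM in aged and young microglia and 95.7 and 88.5 CPM in aged and young border macrophages. Pdia6 (P5) was at 533 and 289 CPM in plasma cells, 58.1 to 119.6 CPM in B, NK and T cells, and 247 and 436 CPM in aged and young microglia. Border macrophages held 189 and 285 CPM of Pdia6 in aged and young brain. The Pdia6 value of young plasma cells rested on 15 UMIs. Pdia3 (ERp57), which works with calreticulin on glycoproteins, was highest of these classes in young microglia, with 534 CPM, followed by aged microglia with 311 CPM. Plasma cells held 235 and 154 CPM of Pdia3 in aged and young spleen, and B, NK and T cells 62.2 to 159 CPM. Calr, the lectin chaperone calreticulin, was also highest in young microglia, at 1138 CPM, but aged plasma cells came next with 1093 CPM, followed by young border macrophages with 782 CPM. It was at 658 CPM in aged microglia, 558 CPM in young plasma cells and 319 to 439.5 CPM in B, NK and T cells.

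Herpud1, a membrane protein of ER-associated degradation, was at 962 CPM in plasma cells of aged spleen and 173 CPM in those of young spleen, where it rested on 9 UMIs. B, NK and T cells, microglia and border macrophages held 65.2 to 197 CPM of it, with young microglia at the upper end. Xbp1 was the 1 gene of the 10 that was higher in young than in aged plasma cells, with 1259 CPM in aged spleen and 2001 CPM in young spleen. It was at 38.1 and 59.3 CPM in B cells, 73.9 and 65.4 CPM in NK cells, 98.1 and 63.4 CPM in T cells and 158 and 179.6 CPM in microglia (aged and young). Ddit3, which encodes the stress factor CHOP, was not led by plasma cells. It had 78.5 CPM in plasma cells of aged spleen and 0 of 51969 UMIs in those of young spleen, where the limit of 3 UMIs is 57.7 CPM, against 107 and 92.3 CPM in B cells, 100.3 and 107 CPM in NK cells and 70.4 and 76.1 CPM in T cells of aged and young spleen. Microglia and border macrophages held 39.7 to 57.4 CPM of Ddit3, below all 6 B, NK and T cell values.

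**Figure D1:**
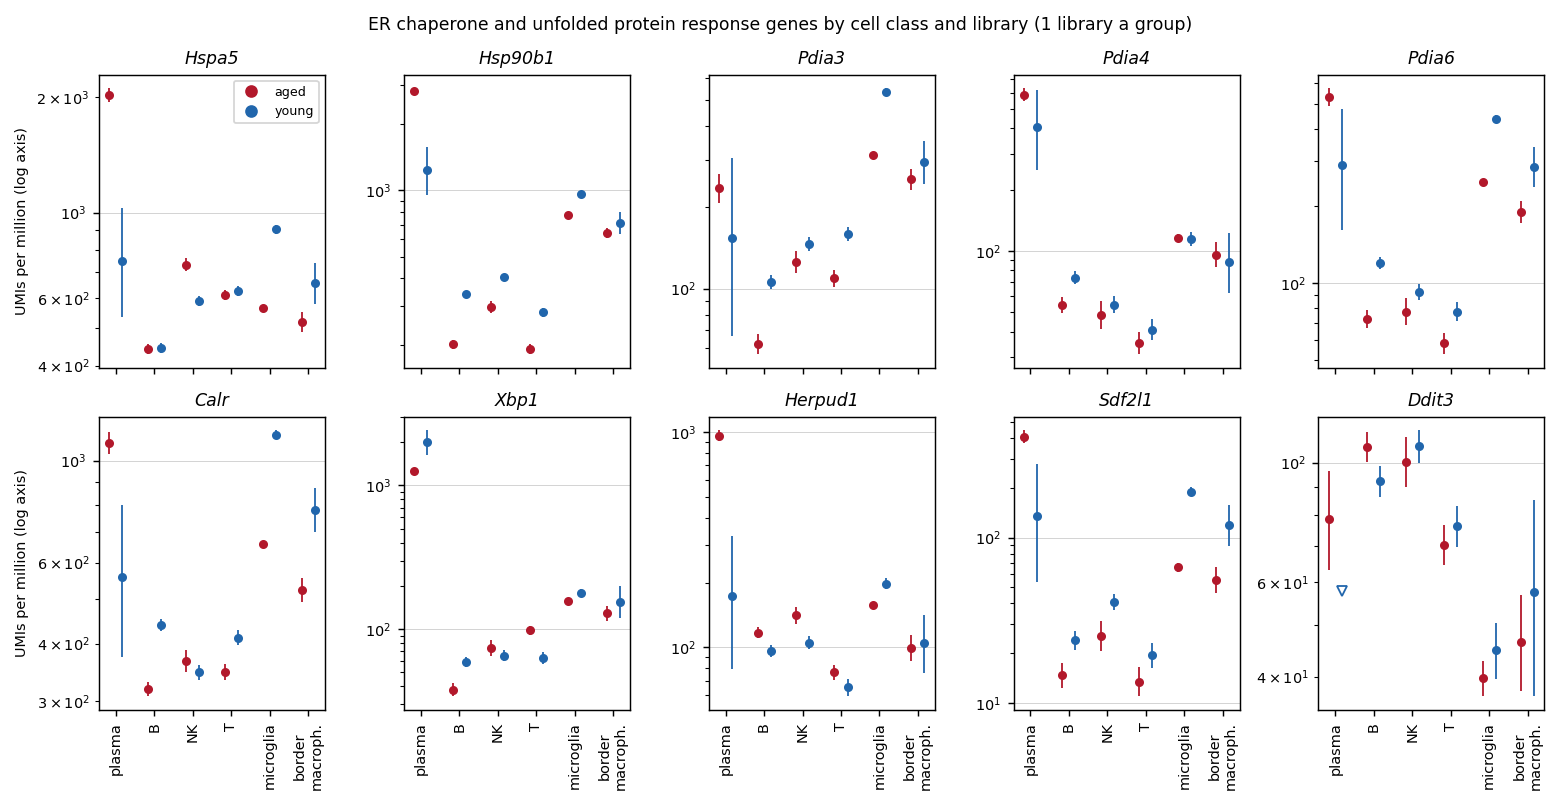
Level of each of the 10 genes in CPM (log axis) by cell class, with aged libraries left of young ones and bars for the exact 95% Poisson interval; an open symbol marks 0 UMIs at the limit that a count of 0 allows. Plasma cells of aged spleen stand highest for Hspa5 (2025 CPM), Hsp90b1, Pdia4, Pdia6, Herpud1 and Sdf2l1, while Ddit3 is at 78.5 CPM there and at 107 CPM in B cells of aged spleen.

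Set directly against B cells of the same aged spleen, plasma cells were higher in 9 of the 10 genes and lower in 0. Among all genes with at least 50 UMIs over both classes, 10.5% were higher by the same rule and 64% lower, and the median log2 ratio was -0.98, against 2.96 for the 10 genes. Xbp1 had the highest ratio of the 10, 33.1-fold (29.4 to 37.4), followed by Sdf2l1 at 27.8-fold (22.8 to 34.0). Hsp90b1 was 14.0-fold higher (13.2 to 14.9), Pdia4 10.8-fold (9.62 to 12.2), Herpud1 8.21-fold (7.54 to 8.95) and Pdia6 7.37-fold (6.58 to 8.25). The smallest differences among the 9 were those of Hspa5 at 4.58-fold (4.35 to 4.82), Pdia3 at 3.78-fold (3.26 to 4.39) and Calr at 3.43-fold (3.20 to 3.67). Ddit3 had a ratio of 0.734 (0.584 to 0.913), which did not reach the threshold. When levels were scaled to the median gene instead of the total, every ratio was larger by 0.96 on the log2 scale, which put Xbp1 at 64.5-fold, Sdf2l1 at 54.2-fold, Hsp90b1 at 27.4-fold, Hspa5 at 8.93-fold and Ddit3 at 1.43, on the other side of 1. The counts were then still 9 higher and 0 lower, where 29.6% of all genes were higher and 29.6% lower.

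In young spleen the same comparison rested on 8 plasma cells. Plasma cells were higher than B cells in 7 of the 10 genes and lower in 1, where 20% of the genes measured were higher and 44.5% lower. Xbp1 was 33.7-fold higher (27.1 to 41.6), close to its ratio in aged spleen. Sdf2l1 was 5.65-fold higher (2.25 to 11.8), Pdia4 5.50-fold (3.38 to 8.47), Hsp90b1 3.63-fold (2.79 to 4.65) and Pdia6 2.41-fold (1.35 to 4.00), and these 4 intervals lie below the ratios of aged spleen. Hspa5 was 1.68-fold higher (1.20 to 2.31). Herpud1 was called higher at 1.80-fold, but on 9 UMIs and with an interval that includes 1 (0.819 to 3.43). Pdia3 at 1.46-fold (0.628 to 2.88) and Calr at 1.27-fold (0.849 to 1.83) did not reach the threshold, and the 1 lower gene was Ddit3, with 0 UMIs in plasma cells and a ratio whose interval reaches 0.770. The call of Ddit3 is taken at the limit of 3 UMIs and was lost without antibody genes in the denominator, with levels scaled to the median gene and after thinning. Without antibody genes in the denominator, 9 genes were higher, Pdia3 at 2.80-fold and Calr at 2.44-fold among them. The count was also 9 with levels scaled to the median gene, with each cell weighted equally and with doublets kept. With levels scaled to the median gene, 30.1% of all genes were higher.

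**Figure D2:**
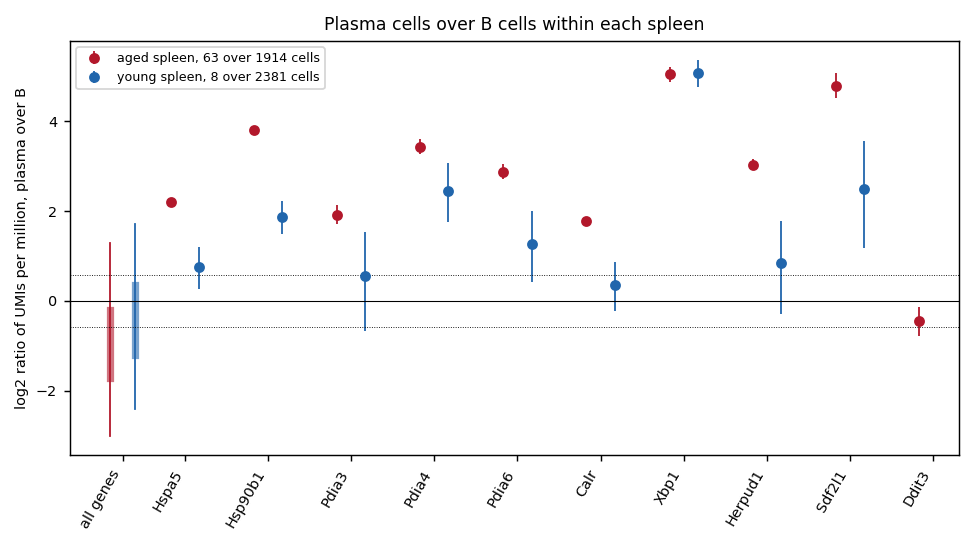
Log2 ratio of plasma cells over B cells for each gene in aged spleen and young spleen, with exact 95% intervals for counting error and dashed lines at 1.5-fold. Xbp1 has nearly the same ratio in both spleens (33.1-fold in aged and 33.7-fold in young), while Hsp90b1 is 14.0-fold in aged and 3.63-fold in young spleen.

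Genes of the same compartment were read from lists that were chosen with earlier results of these data known. Of 28 measured ER folding and disulfide enzymes, 20 were higher in plasma cells than in B cells of aged spleen and 1 was lower (median log2 ratio 1.68). Fkbp11, a prolyl isomerase of the ER, was at 205 CPM in plasma cells against 3.05 CPM in B cells, a ratio of 67.4, and the lower gene was Ero1lb, an oxidase that recharges the isomerases, at 0.606. Of 27 genes for translocation and N-glycosylation, 21 were higher and 1 was lower (median 2.04). Among them Rpn1, a subunit of the oligosaccharyl transferase, was at 280.4 CPM against 26.2 CPM, and Ssr4, a subunit of the translocon-associated complex, at 1091 against 104 CPM, whereas the catalytic subunit Stt3b was lower at a ratio of 0.646. Of 17 genes of ER-associated degradation, 14 were higher and 1 was lower (median 1.33), with Edem2 at 253 against 14.7 CPM and Edem1 at 483 against 38.9 CPM, both of which act on misfolded glycoproteins.

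Lists outside the folding machinery held genes in both directions, read against 10.5% of all genes higher and 64% lower in this comparison. Of 9 measured sensors and transcription factors of the response, 4 were higher and 4 lower in aged plasma cells (median log2 ratio -0.30). Creb3l2, an ER-bound transcription factor, was at 121 CPM against 6.33 CPM in B cells, while Eif2ak3, which encodes PERK, was at 36.1 against 88.7 CPM, a ratio of 0.408. Of 14 integrated stress response targets, 7 were higher and 3 lower (median 0.63). Slc3a2, an amino acid transporter subunit, was at 594 against 157 CPM, and Ppp1r15a, which lets translation recover after PERK signalling, at 154 against 342 CPM. Of 15 cytosolic and mitochondrial chaperones, 4 were higher and 5 lower (median -0.21), and Hspb1 was at 69.7 against 0.791 CPM while mitochondrial Hspa9 had a ratio of 0.469. Of 14 immediate early genes, a sign of stress during cell preparation, 3 were higher and 4 lower, and their part in the differences above was not tested. In young spleen, where 20% of all genes were higher and 44.5% lower, 15 of 24 folding genes were higher and 3 lower, 19 of 27 translocation genes were higher and 2 lower, and 10 of 17 degradation genes were higher and 1 lower. There 2 of 7 sensors were higher and 3 lower, 5 of 10 stress response targets higher and 2 lower, and 1 of 13 cytosolic chaperones higher and 10 lower.

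The 63 plasma cells of aged spleen were not uniform. They held 1322 to 48248 UMIs each, of which 1.28% to 68.7% came from antibody genes (median 44.0%). With antibody genes left out of the denominator (CPM of non-antibody UMIs), the 10 genes together ranged over 893 to 76389 CPM (median 14361). Most of the cells, 56 of the 63, fell into a cluster led by cell cycle and antibody genes, as did 4 of the 8 in young spleen. Of the 8 young cells, 2 fell into the main B cell cluster and 2 into an unnamed cluster led by Cd5l, Spic, Hmox1 and Fcna. Of the aged cells, 3 fell into the NK cluster, 2 into the main B cell cluster, 1 into a T cell cluster and 1 into the dendritic cluster. The part of these cells in the plasma cell values of either spleen was not tested.

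Split by the cell cycle genes Mki67 and Top2a, 27 aged plasma cells had a UMI of either and 36 had none, and these subsets were deep to different degrees, with medians of 23364 and 12245 UMIs. A count of 0 in a shallower cell does not show that the cell was not cycling. Hsp90b1 was at 5995 CPM of non-antibody UMIs in cells with a cycle UMI and 3004 in cells without, and Pdia3 at 488 and 272. Herpud1 ran the opposite way, at 1110.0 in cells with a cycle UMI and 2468 in cells without, as did Ddit3, at 102 and 184. Hspa5 (3302 and 3712), Xbp1 (2123 and 2200.4) and Sdf2l1 (732 and 647) lay closer together. Against B cells of aged spleen, the 36 cells without a cycle UMI alone were still higher in 9 genes, with Sdf2l1 at 22.1-fold, Herpud1 at 10.6-fold, Hsp90b1 at 7.51-fold, Hspa5 at 4.21-fold and Pdia3 at 2.19-fold. The share of all genes higher in this subset was not computed. Against the ratios of all 63 cells, those of Hsp90b1 and Pdia3 were smaller in these 36 cells and that of Herpud1 larger.

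By the antibody constant region with the most UMIs, 51 of the 63 cells were Ighm, 7 Ighg2c, 3 Igha, 1 Ighg2b and 1 Ighg3. Cells with most UMIs from Ighm held 18218 CPM of non-antibody UMIs for the 10 genes together, against 12620 in the 7 Ighg2c cells and 11106 in the 3 Igha cells. Herpud1 was at 1809.5 in Ighm cells and 664 in Ighg2c cells, and Hspa5 at 3903 and 1886. Across the 63 cells, which share 1 library and differ in depth, Spearman's rho with the antibody share was 0.477 for Xbp1, 0.275 for Herpud1, -0.252 for Hsp90b1 and -0.0435 for the 10 genes together, given as descriptions. In young spleen the 8 cells held 2577 to 18080 UMIs, and the 10 genes together ranged over 3704 to 18881 CPM of non-antibody UMIs, inside the range of the aged cells.

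**Figure D3:**
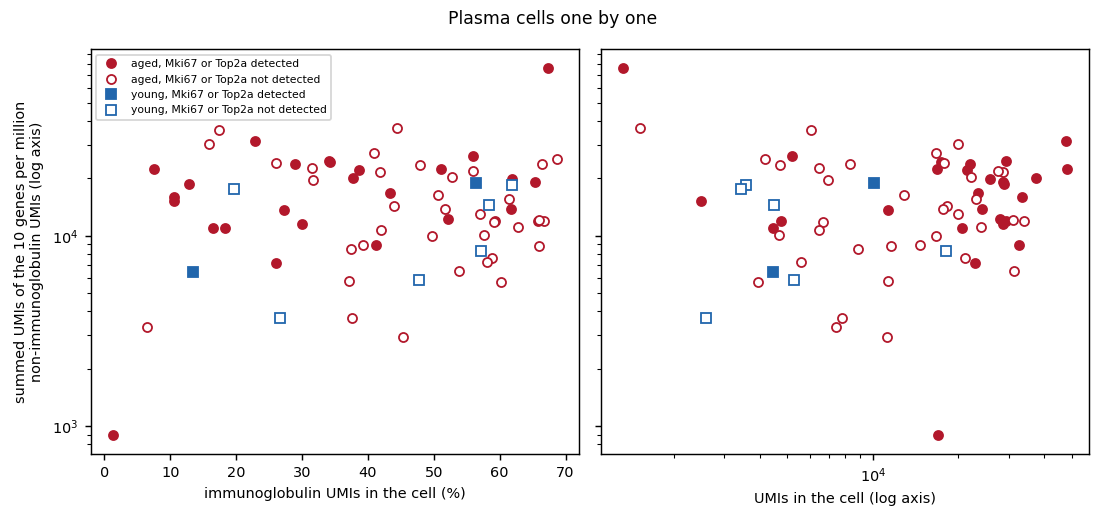
Each point is 1 plasma cell (aged spleen 63, young spleen 8): the antibody share of its UMIs in percent on the x axis and the 10 genes' summed level in CPM of non-antibody UMIs on the y axis (log). The aged cells range over 893 to 76389 and the young cells over 3704 to 18881, so the young cells lie inside the range of the aged ones.

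Between aged and young plasma cells, 7 of the 10 genes were higher in aged spleen and 1 was lower, where 34.5% of the 1775 genes measured were higher and 14.1% lower (median log2 ratio over all genes 0.25). Herpud1 was 5.55-fold higher (2.92 to 12.2; 1091 against 9 UMIs), Sdf2l1 3.03-fold (1.46 to 7.58), Hspa5 2.70-fold (1.97 to 3.81; 2297 against 39 UMIs) and Hsp90b1 2.29-fold (1.79 to 2.98). Calr was 1.96-fold higher (1.36 to 2.94), Pdia6 1.84-fold (1.11 to 3.32) and Pdia3 1.53-fold (0.765 to 3.58), and Pdia4, at 1.45-fold (0.941 to 2.36), did not reach the threshold. Xbp1 was the lower gene, at 0.629 (0.515 to 0.775; 1428 against 104 UMIs), a call that was lost after thinning and, at 0.753, with each cell weighted equally, and Ddit3 had 89 UMIs against 0. The aged cells were deeper, with a median of 17656 UMIs against 4475 in young cells. The count of higher genes was 2 of 10 after every cell was thinned to the same number of UMIs, where Hsp90b1 had a ratio of 1.03. Genes left with fewer than 50 UMIs over both groups could not be called then, so this count does not show that the uncalled genes were no longer higher. Pdia3, Pdia6, Sdf2l1 and Ddit3 had a ratio in 12 alternatives in processing, against 13 for Hspa5. With each cell given equal weight the count was 4. Several marker lists moved with the group: the 8 cell cycle markers summed to 752 CPM in aged and 173 CPM in young plasma cells, 13 monocyte and macrophage markers to 179 and 924 CPM, 10 B cell markers to 938 and 1886 CPM, and immediate early genes to 8745 and 16375 CPM. Their part was not tested.

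Of the 10 genes, 0 were higher and 5 lower in B cells of aged spleen than in those of young spleen, where 5.29% of all genes measured were higher and 9.2% lower. Pdia3 had a ratio of 0.589 (0.531 to 0.654; 62.2 against 106 CPM), Hsp90b1 0.592 (0.559 to 0.628; 201 against 339 CPM), Pdia6 0.605 (0.548 to 0.666), Sdf2l1 0.616 (0.494 to 0.766) and Xbp1 0.641 (0.559 to 0.735). Calr at 0.726 and Pdia4 at 0.736 were below 1 without reaching the threshold, and Hspa5 was at 0.992 (0.950 to 1.04). Herpud1 at 1.22 (1.11 to 1.33) and Ddit3 at 1.16 (1.06 to 1.27) were above 1. When levels were scaled to the median gene, 3 genes were lower, where 5.26% of all genes were lower. Of 27 other folding genes 4 were lower and 0 higher, with a median log2 ratio of -0.15 against -0.12 over all genes, and Fkbp11 at 0.619 and the isomerase Txndc5 at 0.637 were among the lower. Of 27 translocation genes 2 were lower (Rpn1 0.619, Ostc 0.640) and 1 higher (Stt3b 1.58), and of 17 degradation genes 1 was lower, the ligase Syvn1 at 0.661. Eif2ak3 was the 1 sensor of 9 that was higher, at 88.7 CPM in aged and 37.4 CPM in young B cells, a ratio of 2.37. Of 14 stress response targets 2 were higher, Cebpb at 2.13 and Atf3 at 1.71, and 1 was lower, Psat1, an enzyme of serine synthesis, at 0.523. Immediate early genes summed to 10012 CPM in aged and 9905 CPM in young B cells.

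NK cells showed 0 higher genes and 1 lower gene of the 10 in aged spleen, where 6.52% of all genes measured were higher and 11.5% lower. The lower gene was Sdf2l1, at 0.624 (0.487 to 0.793; 25.5 against 40.9 CPM), whose log2 ratio was 0.032 when every cell was thinned to 1000 UMIs. Hspa5 at 1.24 (1.18 to 1.3), Herpud1 at 1.34 (1.20 to 1.51) and Xbp1 at 1.13 were above 1, and Hsp90b1 at 0.732, Pdia6 at 0.839 and Pdia3 at 0.862 below it. None of these reached the threshold, although the intervals of Hspa5 and Herpud1 above 1 and of Hsp90b1, Pdia6 and Pdia3 below 1 exclude 1. Cytosolic heat shock genes differed more: of 15, 3 were higher and 1 lower, with Hspa1a at 2.72 and Hspa1b at 2.29. Immediate early genes were higher in 6 of 15 and lower in 1, and summed to 16335 CPM in aged and 12069 CPM in young NK cells, and their part in the values of the 10 genes was not tested.

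In T cells 1 of the 10 genes was higher in aged spleen and 0 were lower, where 8.35% of all genes measured were higher and 9.09% lower. Xbp1 was at 98.1 against 63.4 CPM, a ratio of 1.55 (1.37 to 1.74). Hsp90b1 at 0.682 (0.636 to 0.730), Pdia3 at 0.685 and Sdf2l1 at 0.695 were below 1 without reaching the threshold, and Hspa5 was at 0.977. The T cells came from 3 clusters whose sizes differed between the libraries: 199 and 630 aged and young cells in one led by Cxcr6 and Il4, 574 and 158 in one led by Ctla4 and Foxp3, and 503 and 537 in one led by Cd8b1 and Dapl1. Within these clusters, in the same order, Xbp1 had ratios of 1.34, 1.38 and 1.94, Herpud1 1.36, 1.71 and 1.85, and Hsp90b1 0.742, 0.629 and 0.80. Herpud1 was thus further above 1 inside every cluster than in the T cells as a whole, where its ratio was 1.17, and 0.83 after thinning to 1000 UMIs. Of 10 sensors 1 was higher, Creb3l2 at 2.04, and of 14 stress response targets 3 were higher, Sesn2 at 1.82 and Atf3 at 1.74 among them.

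**Figure D4:**
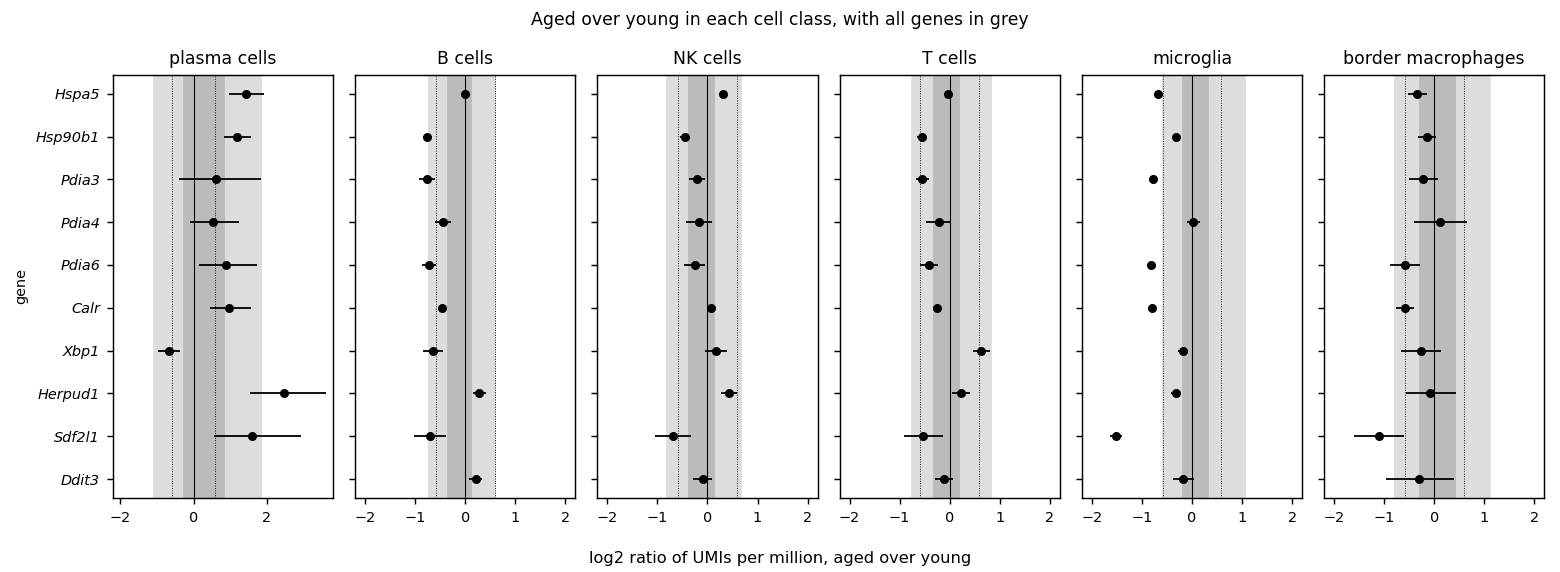
Log2 ratio of aged over young for each gene in plasma, B, NK and T cells of spleen and in microglia and border macrophages of brain, with exact 95% intervals for counting error and dashed lines at 1.5-fold. Hspa5 is 2.70-fold higher in aged plasma cells, at 0.992 in B cells and at 0.622 in microglia, and Sdf2l1 is below 1 in all classes except plasma cells.

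In microglia, the resident macrophages of the brain, 5 of the 10 genes were lower in aged brain and 0 higher, where 12.3% of all genes measured were higher and 4.91% lower (median log2 ratio 0.07). Sdf2l1 had the lowest ratio, 0.348 (0.320 to 0.378; 65.9 against 189.7 CPM). Pdia6 was at 0.566 (0.539 to 0.594; 247 against 436 CPM), Calr at 0.578 (0.561 to 0.596; 658 against 1138 CPM), Pdia3 at 0.583 (0.558 to 0.609; 311 against 534 CPM) and Hspa5 at 0.622 (0.602 to 0.644; 563 against 905 CPM). Hsp90b1 at 0.799 (0.775 to 0.824), Herpud1 at 0.796, Xbp1 at 0.880 and Ddit3 at 0.888 were below 1 without reaching the threshold, and Pdia4 was at 1.02 (0.932 to 1.11). The lower genes therefore included 2 of the 3 isomerases, the lectin chaperone and BiP with its partner Sdf2l1, and left out GRP94, Pdia4 and the 3 response genes Herpud1, Xbp1 and Ddit3.

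The aged and young microglia lay mostly in different clusters. Of the aged cells, 4624 and 1589 were in a pair of clusters that held 45 and 16 young cells, and 161 were in the cluster that held 2364 young cells. Within that shared cluster 5 genes were lower in aged cells: Sdf2l1 at 0.297, Ddit3 at 0.381 (0.139 to 0.841), Pdia6 at 0.466, Pdia3 at 0.502 and Calr at 0.566. The share of all genes lower within this cluster was not computed, so the count has no background. Ddit3 rested on 6 UMIs in the 161 aged cells. Hspa5, at 0.696, did not reach the threshold there, and Xbp1 was at 1.20. Over the alternatives in processing that could be computed, the ratio stayed within 0.332 to 0.375 for Sdf2l1, 0.502 to 0.588 for Pdia6, 0.525 to 0.600 for Calr, 0.529 to 0.605 for Pdia3 and 0.595 to 0.646 for Hspa5.

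Other ER genes of microglia differed in both directions. Of 28 folding genes 6 were lower and 3 higher in aged microglia. Manf, a secreted ER stress protein, was at 162 CPM in aged and 309 CPM in young microglia, and Dnajb9, a BiP cochaperone, had a ratio of 0.591, while Selenom at 1.64 and Pdia5 at 1.58 were higher. Of 27 translocation genes 4 were lower (Ssr2 0.579 and Ostc 0.626 among them) and 1 higher (Sec61g 1.74), and of 17 degradation genes 2 were lower (Selenok 0.547, Derl2 0.628) and 1 higher (Fam8a1 2.27). Of the 10 sensors and factors 0 were higher and 0 lower. Of 15 stress response targets 3 were lower, Mthfd2 at 0.475 and Ppp1r15a at 0.554 among them.

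Several measures moved with the age of the microglia. Of 15 immediate early genes 9 were lower and 0 higher in aged brain, with Klf2 at 0.304 and Fosb at 0.327, and their sum was 7009 CPM in aged and 12123 CPM in young microglia. The heat shock gene Hspa1a was at 8.84 CPM in aged and 59.5 CPM in young microglia. Ttr, a gene of the choroid plexus, was at 3378 CPM in aged and 688 CPM in young microglia, and the 8 choroid and ependymal markers summed to 3823 and 762 CPM. Mitochondrial transcripts were 3.27% of aged and 2.49% of young UMIs, and ribosomal protein transcripts 10.5% and 7.37%. The part of these in the values of the 10 genes was not tested.

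Border macrophages, the macrophages of the meninges and perivascular spaces, had 2 lower genes of the 10 and 0 higher in aged brain, where 17.3% of all genes measured were higher and 10.3% lower. Sdf2l1 was at 0.465 (0.331 to 0.662; 55.6 against 119.6 CPM) and Pdia6 at 0.664 (0.540 to 0.823; 189 against 285 CPM). Calr, at 0.670 (0.591 to 0.760; 524 against 782 CPM), lay just outside the threshold, and Hspa5 was at 0.793 (0.693 to 0.908). Hsp90b1 (0.906), Pdia3 (0.861), Xbp1 (0.827), Herpud1 (0.947), Ddit3 (0.809) and Pdia4 (1.08) had intervals that include 1. The call of Pdia6 was lost, at 0.671 to 0.712, with several alternatives in cell filtering, clustering and weighting, and Xbp1 turned to 1.69 after thinning. Sdf2l1 thus had the lowest of the 10 ratios in both brain macrophage classes, while Pdia3, which was lower in aged microglia, did not reach the threshold in border macrophages, and the difference between these classes was not tested. Of 24 folding genes 4 were lower and 0 higher, Erp44, which retains enzymes in the ER, at 0.496 and the peroxiredoxin Prdx4 at 0.526 among them. Of 27 translocation genes 3 were lower (Sec11a 0.497 and Ssr2 0.511 among them) and 4 higher (Sec61g 2.10 among them). Immediate early genes were lower in 8 of 14 and higher in 0, and summed to 4649 CPM in aged and 7259 CPM in young border macrophages. The 8 choroid and ependymal markers summed to 3678 CPM in aged and 768 CPM in young border macrophages, the 11 microglia markers to 7918 and 4976 CPM, the 10 border macrophage markers to 8094 and 11721 CPM, and ribosomal protein transcripts were 12.4% and 8.5% of UMIs. The part of these in the values of the 10 genes was not tested.

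Border macrophages were also set against microglia of the same brain. More of the 10 genes were past 1.5-fold in young than in aged brain, but so was a larger share of all genes. In aged brain 1 gene was lower in border macrophages and 0 were higher, where 10.4% of all genes measured were higher and 22.9% lower. Herpud1 was that gene, at 99.6 CPM in border macrophages and 157 CPM in microglia, a ratio of 0.634 (0.547 to 0.730), and the others lay at 0.766 to 1.17, with Ddit3 the highest. In young brain 4 genes were lower and 0 higher, where 13.1% of all genes measured were higher and 30.4% lower: Herpud1 at 0.533, Pdia3 at 0.551, Sdf2l1 at 0.630 and Pdia6 at 0.653. The call of Herpud1 in aged brain was lost with levels scaled to the median gene and, at 0.739, with doublets kept. The 11 microglia markers summed to 7918 CPM in border macrophages and 27211 CPM in microglia of aged brain. In young brain these sums were 4976 and 31822 CPM. Their part in these ratios was not tested. Among genes of the same pathways, the glycoprotein degradation gene Edem2 had ratios of 0.418 in aged and 0.303 in young brain, and Creb3l2 0.352 and 0.226.

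Across the 11 class profiles used for this purpose, the genes whose log levels followed Hspa5 most closely were Ssr3 (Pearson r = 0.953), Tmed2 (0.945), Clptm1l (0.934), Ppib (0.931) and Sec61a1 (0.927), out of 11000 genes. Those closest to Ddit3 were Dph3 (0.980), Gpr171 (0.975), Ppp3cc (0.969), Glcci1 (0.966) and Klf2 (0.956). Among the 10 genes the closest pairs were Pdia6 with Calr (0.974) and Hsp90b1 with Sdf2l1 (0.973). Ddit3 was negatively related to each of the other 9, from -0.0625 to -0.823. The profiles share libraries and differ in depth, so these values describe the profiles and carry no test.

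The authors' deposited tables of genes that mark their own clusters also list several of the 10. Each value sets a cluster against the other cells of its own library, so the reference differs between libraries. In the authors' deposited table for aged spleen, the cluster led by Jchain, Igkc, Ighm and Iglc1 lists 8 of the 10 genes, with average differences on a natural log scale of 1.95 for Hsp90b1, 1.80 for Xbp1, 1.53 for Herpud1, 1.5 for Pdia4, 1.04 for Hspa5, 0.923 for Sdf2l1, 0.922 for Pdia6 and 0.787 for Calr. In the authors' deposited table for young brain, the cluster led by Cst3, Cx3cr1, C1qb and P2ry12 lists 7, among them Pdia3 at 0.843, Pdia6 at 0.837, Sdf2l1 at 0.771 and Calr at 0.749. In the authors' deposited table for aged brain, Pdia4 alone of the 10 is listed, at 0.264 in the cluster led by Enpp2 and Ttr. Whether barcodes shared with aged spleen were among the authors' other cells of young brain was not tested. The lists of aged and young brain are therefore not a comparison of ages. Ddit3 is listed in none of the authors' 4 deposited tables, which hold only values above 0.25.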

How the data were processed

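Single-cell 3′ RNA libraries of sorted leukocytes from the brain and spleen of aged and of young mice were analysed from the matrices of raw UMI counts per gene and barcode that the authors deposited. Cell Ranger 1.3.1 and the human build GRCh38 are listed in the submitters' processing notes, whereas the matrix headers name software 3.1.0 and the features are mouse gene IDs, so the version behind these counts is not certain. The authors also deposited tables of cluster marker genes with an average difference and p-values, of which the p-values support nothing here, and 8 columns of shares of cells, which were not used. The base of the average difference is not stated. Over 411 genes of the authors' deposited table for aged spleen, its slope on natural log ratios computed from the counts was 0.844, where log2 values would give 1.44, so it is described as a natural log.

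Cells had at least 500 UMIs, at least 250 genes and at most 10% mitochondrial UMIs. Barcodes at or above a size cutoff were taken as cells without a further test. The cutoff was 4043 UMIs in aged brain, 1021 in young brain, 3432 in aged spleen and 1937 in young spleen. Barcodes below it needed an RNA profile that differed from barcodes of at most 100 UMIs (Monte Carlo test, 10000 draws, false discovery rate of 0.01). Predicted doublets were removed by rank, at 0.8% per 1000 cells where the automatic threshold marked under 0.5%. The cells kept had a median of 2136 UMIs in aged brain, 2303 in young brain, 4652 in aged spleen and 4121 in young spleen. Clustering used scanpy 1.11.5 and leidenalg 0.10.2 (2000 variable genes, 30 components, 15 neighbours, resolution 1) without the 10 genes and the lists described beside them. UMIs were summed per class and library. Intervals of levels are exact Poisson intervals and those of ratios exact conditional binomial intervals (scipy 1.17.1). Other genes are named where they had the highest or lowest ratios of their list past 1.5-fold. Likeness was measured on log2(CPM + 1) over class profiles of at least 10 cells, which leaves out young plasma cells. The 10 genes, the lists, the rule and the comparisons were chosen with earlier results of these data known. The code for cell calling and for ratios was tested on simulated data. Of the 31053 feature IDs, 30934 matched the GENCODE M21 annotation, and promoter sequences are those of RefSeq for GRCm38.p6.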

Additional observations from a re-analysis of the deposited data

Results flagged for a closer look

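Some genes differed with age in opposite directions in different classes, each past 1.5-fold. The ratio of the aged-over-young ratio in plasma cells to that in microglia was 8.72 for Sdf2l1 (3.03 in plasma cells, 0.348 in microglia), 4.34 for Hspa5 (2.70 and 0.622), 3.39 for Calr (1.96 and 0.578) and 3.26 for Pdia6 (1.84 and 0.566). For Hsp90b1 the widest gap was between plasma cells at 2.29 and B cells at 0.592, a ratio of 3.86. For Xbp1 it was between T cells at 1.55 and plasma cells at 0.629, a ratio of 2.46. After thinning to 1000 UMIs the plasma cell ratio was 1.03 for Hsp90b1 and 1.18 for Calr, and with each cell weighted equally it was 1.46 for Pdia6 and 0.753 for Xbp1, so these pairs were then not past 1.5-fold on both sides. With 1 library per group these differences were not tested, and the plasma cell values rest on 8 young cells.

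Barcodes that met the plasma cell rule also stood among those left out of young brain. Of the 4694 young brain barcodes with more UMIs in aged spleen, 23 met the plasma cell rule in the young brain matrix, and 0 of the young brain cells outside that set did. The 10 genes summed to 10278 CPM in these 23 and 1556 CPM in the 1807 B cells at such barcodes, a ratio of 6.60, with Hsp90b1 at 3278 CPM and Xbp1 at 1397 CPM in the 23. In aged spleen itself the sums were 9996 CPM in plasma cells and 1427 CPM in B cells. Because the barcodes are shared with aged spleen, the 23 are not taken as plasma cells of young brain or as a second observation. Whether they are aged spleen cells read again was not tested.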

How the results depend on the processing

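Counts of the 10 genes past 1.5-fold, in each direction and comparison, kept within 1.5 times their value in 238 of 276 alternative computations, and single ratios moved by less than their counting interval in 1153 of 1268. Among ratios past 1.5-fold the direction changed in 1: Sdf2l1 in NK cells had a log2 ratio of 0.032 after thinning to 1000 UMIs. Directions also changed for ratios short of 1.5-fold, among them Ddit3 in aged plasma over B cells (1.43 with median-of-ratios scaling), Xbp1 in border macrophages (1.69), Herpud1 in T cells (0.83) and Pdia4 in T cells (1.10), the last 3 after thinning. The cause of the following changes was not tested. Shares over all genes are given only for scaling to the median gene, so the other counts show how calls moved and have no background. At a fold of 2, the counts were 0 lower in young plasma over B cells, 4 higher and 0 lower in aged over young plasma cells, 0 lower in B and NK cells, 0 higher in T cells, 1 lower in microglia, 1 lower in border macrophages and 0 lower for border macrophages over microglia in both brains. Under thinning they were 0 lower in young plasma over B cells, 2 higher and 0 lower in plasma cells with age, 0 lower in NK cells, 1 lower in T cells and 1 higher in border macrophages. With each cell weighted equally they were 4 higher and 0 lower in plasma cells with age, and 0 higher and 2 lower in T cells. With median-of-ratios scaling they were 0 lower in young plasma over B cells (30.2% of all genes lower), 3 lower in B cells (5.26%) and 0 lower in NK cells (7%). For border macrophages over microglia, 0 (aged) and 2 (young) were then lower, where 16.3% and 22.7% of all genes were lower. Without antibody genes in the denominator, 0 were lower in young plasma over B cells. At a mitochondrial limit of 5%, 1 was lower in aged plasma over B cells and 1 higher in B cells with age, where 303 aged and 777 young B cells were left. At a limit of 20% or a minimum of 1000 UMIs, 1 was lower in T cells and 1 in border macrophages. In border macrophages 1 was also lower at Leiden resolution 0.5, with all young brain barcodes kept and, in alternatives chosen after seeing the data, with another random seed and with barcodes shared by any pair left out. The mean over T cell clusters, also chosen after seeing the data, gave 2 higher. Keeping doublets gave 0 lower for border macrophages over microglia in aged brain.

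No cluster was named plasma-like, so that alternative gave no value. At Leiden resolution 0.5 the young microglia numbered 101. No paired analysis was possible because each group has 1 library, which also leaves no replicate to leave out. Depth limits the 8 young plasma cells most, where 3 UMIs correspond to 57.7 CPM.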

Other observations

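Classes outside the main comparisons placed the 10 genes as follows. Neutrophils of aged brain (77 cells) held 153 CPM of Hspa5 (116 to 199.7) and 2.79 CPM of Sdf2l1 (0.0706 to 15.5), and those of young spleen (50 cells) 248 and 8.07 CPM. Dendritic cells had 234 CPM of Herpud1 (209 to 261) in aged spleen (290 cells) and 174 CPM (143 to 209) in young spleen (129 cells), above B, NK and T cells of the same spleens. Cycling cells other than plasma cells had 191 CPM of Xbp1 (170.1 to 214) in aged spleen (250 cells) and 68.2 CPM in young spleen (99 cells). Choroid or ependymal cells of aged brain (198 cells) had 144 CPM of Pdia4 (122 to 169), against 116 CPM in microglia of the same brain.

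Lymphocytes of aged brain were few. The 16 NK cells there had 253 CPM of Hspa5 (139 to 425), against 731 CPM in NK cells of aged spleen, and the 23 T cells 221 CPM (114 to 386), against 611 CPM in T cells of aged spleen. In the NK cells of aged brain the microglia markers summed to 2046 CPM, the choroid and ependymal markers to 2933 CPM and immediate early genes to 2281 CPM, against 33.9, 0.870 and 16335 CPM in those of aged spleen. In the T cells these sums were 3130.5, 4235 and 1915 CPM in aged brain, against 35.9, 1.48 and 10056 CPM in aged spleen, and their part in the difference was not tested. The 2 plasma cells of aged brain held 1961 CPM of Hspa5 (1425 to 2633) and 7399 CPM of Hsp90b1 (6317 to 8615).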
